A study of Homo sapiens with 2 samples.

Results

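The genes described here are 10 genes of Nodal and activin signalling, listed by symbol: NODAL, GDF3, INHBA, INHBB, TDGF1, ACVR1B, ACVR2B, LEFTY1, LEFTY2 and FST. All 10 were found among the 62700 genes of the gene table and have transcripts in the transcript table. Polyadenylated RNA was sequenced from TCam-2, an established human seminoma line (a testicular cancer of germ cell origin), after transduction with a DDX53 construct (labelled DDX53-FLAG in the design). DDX53 is a DEAD-box RNA helicase gene. There is 1 group, DDX53 overexpression, with 2 replicate libraries. The GFP-FLAG and non-transduced cells that the design names as controls were not analysed here, so no effect of DDX53 on these genes was computed. Nothing in the labels says that the replicates came from separate cultures, so the spread between them may be technical.

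Nodal, GDF3 and the activins are secreted ligands of the TGF-beta family. They bind type II receptors such as ACVR2B, which then activate type I receptors such as ACVR1B. Nodal also needs a co-receptor of the EGF-CFC family, of which TDGF1 (Cripto) is one. The active receptors phosphorylate SMAD2 and SMAD3, which enter the nucleus with SMAD4 and act on DNA with partners such as FOXH1. LEFTY1 and LEFTY2 block Nodal outside the cell and are themselves induced by it, and follistatin, the product of FST, binds and neutralises activins. In the fetal testis and in germ cell tumours the pathway is known for its ties to pluripotency genes.

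Reads in genes came to 24137664 in replicate 1 and, in replicate 2, to 22198929. Gene counts were scaled to CPM, counts per 1000000 reads in genes. A count of 0 allows a level of up to 3 reads, equal to 0.124 CPM for replicate 1 and 0.135 CPM for replicate 2. The gene of the construct, DDX53, had 146 and 147 reads, 6.34 ± 0.405 CPM (SD, n = 2). The labelled seminoma type was checked on markers: all 8 seminoma and early germ cell markers were detected, meaning at 1 CPM or more in both libraries. Of 4 embryonal carcinoma markers 3 were detected, of 4 yolk sac and trophoblast markers 0, and of 6 fibroblast and testis somatic markers 3. Such counts alone do not separate seminoma from embryonal carcinoma. The embryonal carcinoma marker SOX2 missed detection only narrowly, with 0.994 and 1.08 CPM. By mean level the seminoma marker SOX17 had 144.5 CPM and SOX2 1.04 CPM, but the embryonal carcinoma marker DNMT3B had 111.4 CPM.

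The co-receptor TDGF1 and the receptor ACVR1B had the highest levels per length of the 10 genes, as given further on in TPM. Of the 10 genes, 6 were detected (TDGF1, ACVR1B, ACVR2B, GDF3, FST and NODAL), against 21.7% of all genes of the table. INHBB, LEFTY2, LEFTY1 and INHBA lay under 1 CPM in both libraries, although each had at least 1 read in both. Together the 10 genes took 313.6 CPM in replicate 1, against 287.2 CPM in the other library.

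**Figure D1:**
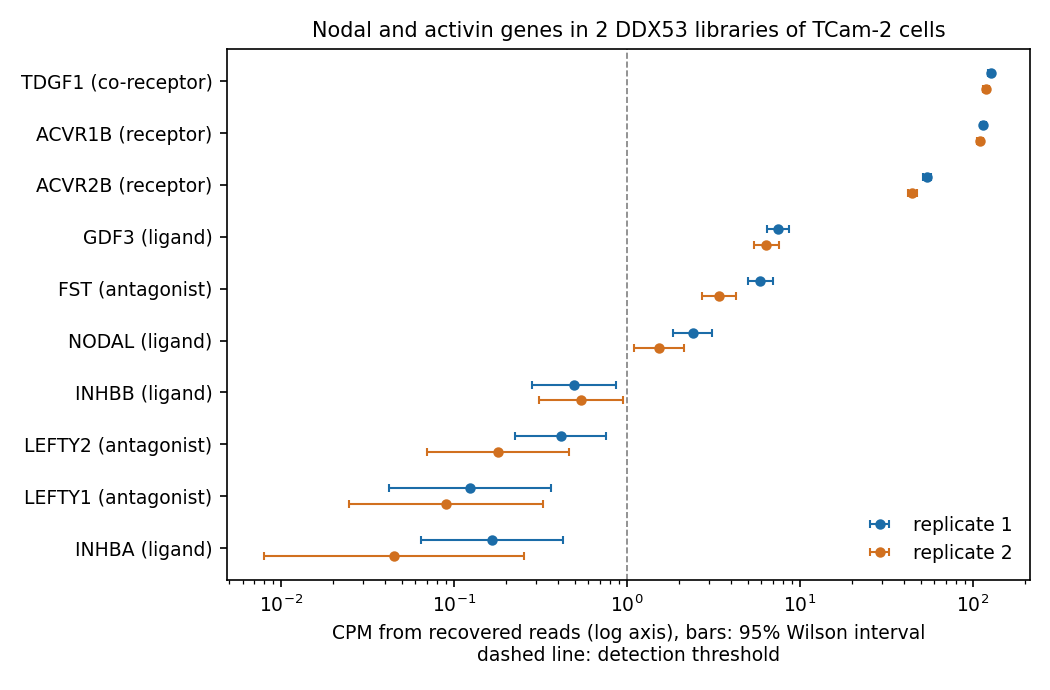
CPM of the 10 genes (log axis) in replicate 1 (blue) and replicate 2 (orange), with 95% Wilson intervals and the threshold of 1 CPM as a dashed line. TDGF1, ACVR1B and ACVR2B lie above 40 CPM, and INHBB, LEFTY2, LEFTY1 and INHBA lie below the threshold.

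Among the ligands GDF3 was the highest. GDF3 (ENSG00000184344.4, chromosome 12 from 7689782 to 7695776, minus strand, 2 exons), a ligand that can signal through the same receptors as Nodal, had 180 reads in replicate 1. That is 7.46 CPM, with a 95% Wilson interval of 6.44 to 8.63. In replicate 2 it had 142 reads, or 6.40 CPM (5.43 to 7.54), and the intervals overlapped. NODAL (ENSG00000156574.10, chromosome 10 from 70432315 to 70447951, minus strand, 3 exons) had 58 reads, or 2.40 CPM (1.86 to 3.11), and 34 reads, or 1.53 CPM (1.1 to 2.14). Its mean was 1.97 ± 0.616 CPM (SD, n = 2), and its intervals also overlapped. The NODAL count is uncertain, since 41.2% of its exonic bases lie in AC022532.1 on the opposite strand, which had 28 and 11 reads. The libraries are strand-specific per the labels, but whether the counting used strand is not given in the sources used here.

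The activin subunit genes were near the limit of detection. INHBB (ENSG00000163083.6, chromosome 2 from 120346143 to 120351808, 2 exons), which encodes the activin beta B subunit, had 12 reads in each library, 0.519 ± 0.0307 CPM (SD, n = 2). INHBA (ENSG00000122641.11, chromosome 7 from 41667168 to 41705834, 3 exons), which encodes the beta A subunit, had 4 reads in replicate 1 and 1 read in replicate 2. Its Wilson intervals reached 0.426 CPM and 0.255 CPM. Both genes thus lay below the detection threshold, and INHBA-AS1, an antisense gene, had no read.

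The 250 bases before the RefSeq start of NODAL and of GDF3, the 2 detected ligand genes, are shown to give the sequence context of the ligand genes these cells express above the detection threshold. They come from RefSeq on GRCh38.p14, in the direction of the gene. The NODAL stretch is chr10:70441682-70441931 and the GDF3 stretch is chr12:7695777-7696025, both on the minus strand. The GDF3 stretch is 1 base shorter, since that base lies in an annotated exon. Capitals mark matches to the FOXH1 motif AATNCACA and to the short SMAD motif CAGAC, searched on both strands.
NODAL: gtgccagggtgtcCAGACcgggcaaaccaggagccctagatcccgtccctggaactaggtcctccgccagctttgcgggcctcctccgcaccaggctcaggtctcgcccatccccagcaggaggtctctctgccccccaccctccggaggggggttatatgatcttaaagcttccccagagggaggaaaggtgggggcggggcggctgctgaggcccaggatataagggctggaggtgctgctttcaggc
GDF3: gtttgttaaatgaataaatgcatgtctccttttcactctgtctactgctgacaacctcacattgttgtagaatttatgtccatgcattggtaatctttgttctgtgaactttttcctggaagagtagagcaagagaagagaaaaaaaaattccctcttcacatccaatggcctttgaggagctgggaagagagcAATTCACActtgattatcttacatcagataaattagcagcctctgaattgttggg
The GDF3 stretch held 1 match to the FOXH1 motif, which 2.89% of 35116 promoter stretches of 250 bases hold. The NODAL stretch held 1 match to the short SMAD motif, which 38.0% of them hold. Neither stretch held the SMAD palindrome GTCTAGAC, found in 0.182% of promoters. Such a match describes letters only and is not a measured binding site. RefSeq promoters were at hand for 7 of the 10 genes, without LEFTY1, LEFTY2 and TDGF1.

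TDGF1 (ENSG00000241186.10, chromosome 3 from 46574534 to 46582463, plus strand), the Nodal co-receptor, was the most abundant of the 10 genes. It had 3064 reads, or 126.9 CPM (123 to 132), in replicate 1. The count in replicate 2 was 2660, or 119.8 CPM (115 to 124), and the intervals overlapped. Its mean CPM ranked 1673 among the 62700 genes. TDGF1 has copies that GENCODE 29 annotates as processed pseudogenes, and the counts of TDGF1 and TDGF1P3 on chromosome X, from 110520312 to 110523021, are uncertain for that reason. The coding sequence of TDGF1, 564 bases long, differed from TDGF1P3 at 7 bases, an identity of 98.8%. Of all windows of 50 bases in the main transcript TDGF1-201, 41.2% occur unchanged in a transcript of another gene, and 40.7% in TDGF1P3.

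The aligned stretch of 90 coding bases with the most differences is shown to let a reader see how little separates the gene from its copy. Capitals mark the 3 bases that differ. The TDGF1 stretch is chr3:46579267-46579356 in exon 3, and the TDGF1P3 stretch is chrX:110521253-110521342, both on the plus strand of GRCh38 and from GENCODE 29 transcripts.
TDGF1: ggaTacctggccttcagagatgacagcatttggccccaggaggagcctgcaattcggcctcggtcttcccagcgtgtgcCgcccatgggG
TDGF1P3: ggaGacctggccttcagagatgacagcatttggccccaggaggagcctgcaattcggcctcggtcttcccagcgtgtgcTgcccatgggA
TDGF1P3 received 47 reads in replicate 1 and 54 reads in replicate 2, 2.19 ± 0.343 CPM (SD, n = 2). In the transcript table the matched transcript of TDGF1P3 had 0.0282 and 0.0606 TPM, a level per transcript length scaled to the library. The 6 other annotated copies, TDGF1P1, TDGF1P2, TDGF1P4, TDGF1P5, TDGF1P6 and TDGF1P7, had no read in either library.

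Of the receptors, ACVR1B was the higher. ACVR1B (ENSG00000135503.13, chromosome 12 from 51951667 to 51997078, 9 exons), the type I receptor ALK4, had 2786 reads, or 115.4 CPM (111 to 120), and 2450 reads, or 110.4 CPM (106 to 115). Those intervals overlapped, and the mean was 112.9 ± 3.57 CPM (SD, n = 2). ACVR2B (ENSG00000114739.14, chromosome 3 from 38453851 to 38493142, 11 exons), a type II receptor, had 1309 reads, or 54.2 CPM (51.4 to 57.2), in replicate 1. In replicate 2 it had 995 reads, or 44.8 CPM (42.1 to 47.7), and the intervals did not overlap. ACVR2B-AS1, an antisense gene that shares no exonic base with it in GENCODE 29, had 21 and 31 reads.

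Of the antagonists only FST was detected. FST (ENSG00000134363.12, chromosome 5 from 53480409 to 53487134, plus strand, 6 exons) had 143 reads, or 5.92 CPM (5.03 to 6.98), in replicate 1 and 76 reads, or 3.42 CPM (2.74 to 4.28), in replicate 2. Replicate 1 was the higher, and the intervals did not overlap. LEFTY2 (ENSG00000143768.13, chromosome 1 from 225936598 to 225941489, minus strand) had 10 and 4 reads, with Wilson intervals of 0.225 to 0.763 CPM and 0.0701 to 0.463 CPM. LEFTY1 (ENSG00000243709.1, chromosome 1 from 225886282 to 225911382, minus strand) had 3 and 2 reads, no more than the level that a count of 0 allows.

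LEFTY1 and LEFTY2 lie near each other and are alike enough for reads to be shared. Their coding sequences, 1098 bases each, align without a gap and are identical at 1067 bases (97.2%), and the longest identical run is 300 bases. Of all windows of 50 bases in LEFTY1-201, 54.7% occur in a transcript of another gene, and 52.9% in the overlapping gene AL117348.2. In LEFTY2-201, 26.1% of windows occur in another gene, with 22.0% shared with LEFTY1. LEFTY1 also shares 46.6% of its exonic bases with AL117348.2, a gene model on the same strand, which had no read. The counts of both LEFTY genes are uncertain for that reason. How reads that match more than 1 gene were counted is not given in the sources used here.

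The gene table was therefore set against the transcript table. From TPM times transcript length, 13.6 reads were predicted for LEFTY1 in replicate 1 and 5.79 in replicate 2, where 3 and 2 were counted. For LEFTY2 16.3 and 4.77 reads were predicted, where 10 and 4 were counted. TDGF1 had 0.697 and 0.701 times the reads predicted. NODAL went the other way, with 1.48 and 1.87 times the prediction. The remaining 6 genes had from 0.954 times (FST, replicate 2) to 1.17 times (ACVR1B in both libraries and ACVR2B in replicate 2) the predicted reads. Over the 12984 genes that reached 1 TPM in each library, the median log2 ratio in replicate 1 was 0.12, with 90% of the genes that had reads between -1.42 and 1.12. The 5 genes of the 10 that reached 1 TPM in both libraries lay within that range. LEFTY1 and LEFTY2 lie below that level, and so few reads allow no comparison with it. Read by either table, LEFTY1 and LEFTY2 stayed under 1 CPM and under 1 TPM.

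**Figure D2:**
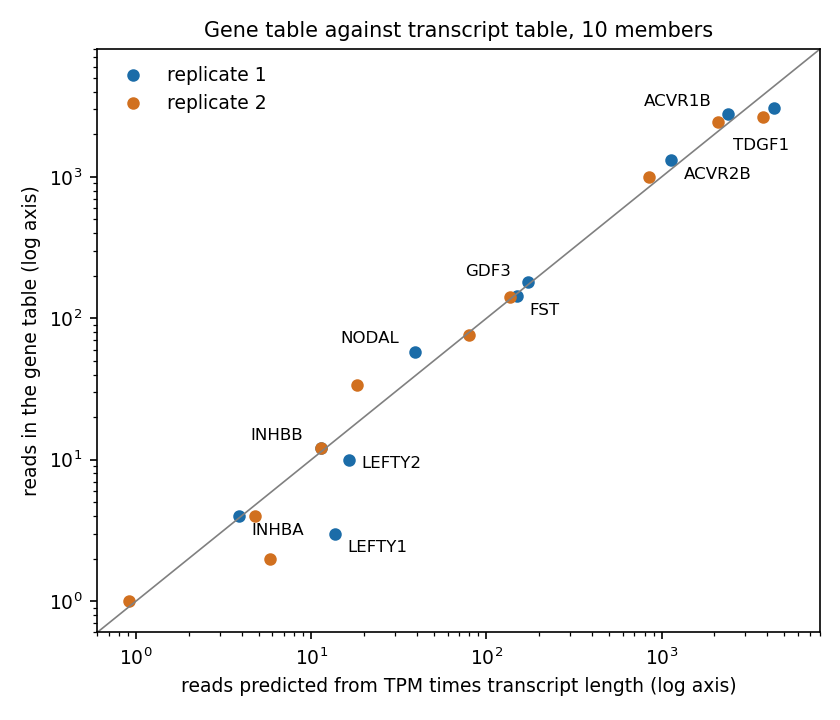
Reads counted per gene against reads predicted from TPM times transcript length, both on log axes, for the 10 genes in replicate 1 (blue) and replicate 2 (orange), with the line of equality. LEFTY1 lies below the line with 3 reads where 13.6 were predicted in replicate 1, and NODAL lies above it.

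Levels of different genes were compared per length, by TPM summed over the transcripts of a gene. TDGF1 led with 129.6 ± 6.94 TPM, followed by ACVR1B with 32.8 ± 0.552 TPM (SD, n = 2 each). GDF3 had 8.02 ± 0.839 TPM, ACVR2B 5.38 ± 0.793 TPM and FST 3.24 ± 1.40 TPM (SD, n = 2 each). NODAL had 1.09 ± 0.513 TPM, and at 0.732 TPM in replicate 2 it fell short of 1 TPM there, so that 5 of the 10 genes reached 1 TPM in both libraries, against 22.5% of all genes with TPM. Each of these 6 genes exceeded the next in both libraries. LEFTY1 (0.520 and 0.239 TPM), LEFTY2 (0.442 and 0.140 TPM) and INHBB (0.220 and 0.238 TPM) followed, and their values overlapped. INHBA came last with 0.0394 and 0.0102 TPM. CPM divided by transcript length kept the first 6 places and the last, and put INHBB before LEFTY2 and LEFTY1.

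The other genes of the pathway were read from a list of 40, of which 26 were detected, against 21.7% of all genes of the table. All 4 further receptors were detected, but at lower levels than the listed receptor of their class. ACVR1B had 2.39 ± 0.406 times the TPM of TGFBR1, the type I receptor for TGF-beta, and 62.4 ± 7.51 times that of ACVR1C, the type I receptor ALK7 (SD, n = 2 each). ACVR2B had 2.36 ± 0.271 times the TPM of ACVR2A, the other activin type II receptor, and 4.29 ± 0.253 times that of TGFBR2 (SD, n = 2 each). Per length ACVR1B was 6.15 ± 0.805 times ACVR2B (SD, n = 2). These orders held in each library.

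TDGF1 was the EGF-CFC co-receptor detected here. CFC1, the other gene of that family, had 0 reads and 1 read, and its near copy CFC1B had none in either library. Their counts are uncertain as well, since 94.3% of the windows of CFC1-201 occur in CFC1B. TDGF1 exceeded NODAL by 92.3 times per length in replicate 1 and 170.3 times in replicate 2, and exceeded GDF3 by 16.2 ± 0.832 times (SD, n = 2). GDF3 exceeded NODAL by 5.91 and 10.1 times. The size of these gaps depends on the measure. With mean CPM divided by transcript length all of them were smaller, at 60.7 CPM per kilobase for TDGF1, 5.59 for GDF3 and 1.18 for NODAL.

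Of 9 further ligand genes only GDF11, TGFB1 and TGFB3 were detected. GDF11, a ligand of the activin receptors, had 6.68 ± 0.926 TPM (SD, n = 2), and GDF3 exceeded it in both libraries. INHA, the inhibin alpha subunit, had 35 and 19 reads and was just under 1 CPM in replicate 2. GDF1 had no read, but its matched transcript lies wholly in sequence shared with CERS1, so its count says nothing of its level. That transcript had 2.62 and 2.42 TPM, values that are uncertain for the same reason. Among the further antagonists, BAMBI, a membrane decoy receptor, had 69.9 ± 0.610 TPM and FSTL3, a relative of follistatin, 4.86 ± 0.203 TPM (SD, n = 2 each). FSTL3 exceeded FST in both libraries. The Nodal antagonists CER1 and DAND5 had 0 reads, and 0 and 2 reads.

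Of the genes that act inside the cell, all 5 listed transducers and all 7 listed intracellular inhibitors were detected. SMAD2 had 45.9 ± 2.65 TPM and FOXH1 42.7 ± 8.04 TPM (SD, n = 2 each). By TPM, SMAD2 exceeded SMAD3 by 18.4 times in replicate 1 and 10.1 times in replicate 2. The size of that gap is uncertain, as SMAD3 had 2.60 and 4.35 TPM but 21.9 and 21.4 CPM. From its TPM, 254.6 and 395.9 SMAD3 reads were predicted, where 528 and 474 were counted. The cause of that mismatch was not tested. By CPM, which leaves out length, SMAD2 had 81.4 and 77.5 and was also the higher in both libraries. Both convertases that can cleave the ligand precursors were detected, FURIN with 38.8 ± 0.335 TPM and PCSK6 with 3.49 ± 0.0389 TPM (SD, n = 2 each). Among known target genes, MIXL1 was detected, at 1.67 ± 0.0905 TPM (SD, n = 2). EOMES had 9 reads and 1 read, GSC 5 and 2, and TBXT 4 and 4.

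**Figure D3:**
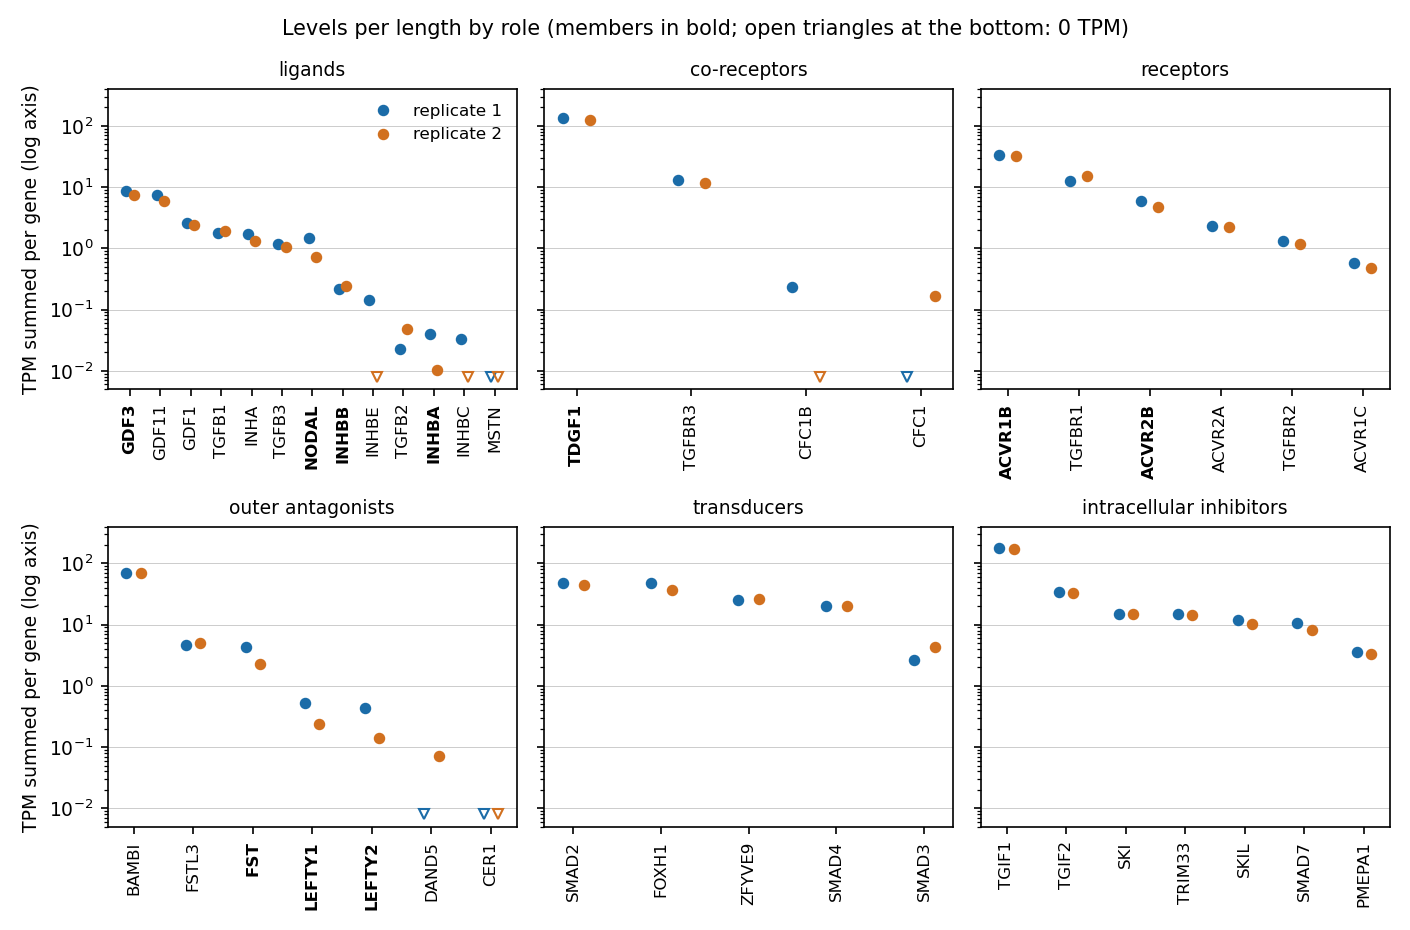
TPM summed per gene (log axis) by role in replicate 1 (blue) and replicate 2 (orange), with the 10 genes in bold among the listed genes of the same role and open triangles for 0 TPM. TDGF1 and ACVR1B lead their panels, and GDF3 leads the ligand panel.

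For most of the 10 genes nearly all TPM lay in 1 transcript. NODAL-201, GDF3-201, INHBA-201, INHBB-201, LEFTY1-201 and LEFTY2-201 held 100% of the TPM of their genes among matched transcripts. GDF3 and INHBB have only that 1, so their share was fixed. INHBA, LEFTY1 and LEFTY2 had 10 reads or fewer in each library, too few to show which transcripts they use. ACVR2B-201 held 99.9% ± 0.121 and ACVR1B-201 95.5% ± 1.98 (SD, n = 2 each). In TDGF1 the coding transcript TDGF1-201 held 74.4% ± 0.578, and TDGF1-204, annotated as a retained intron of 643 bases, held 24.5% ± 0.947 (SD, n = 2 each). In FST, FST-201 held 65.6% in replicate 1 and 88.3% in replicate 2. FST-202 held 16.1% and 4.04%, and FST-205 held 18.3% and 7.68%. The shares of FST moved most between the libraries among the 10 genes, and rest on 143 and 76 reads for the whole gene. No interval is given for these shares, because the reads behind each transcript are unknown.

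**Figure D4:**
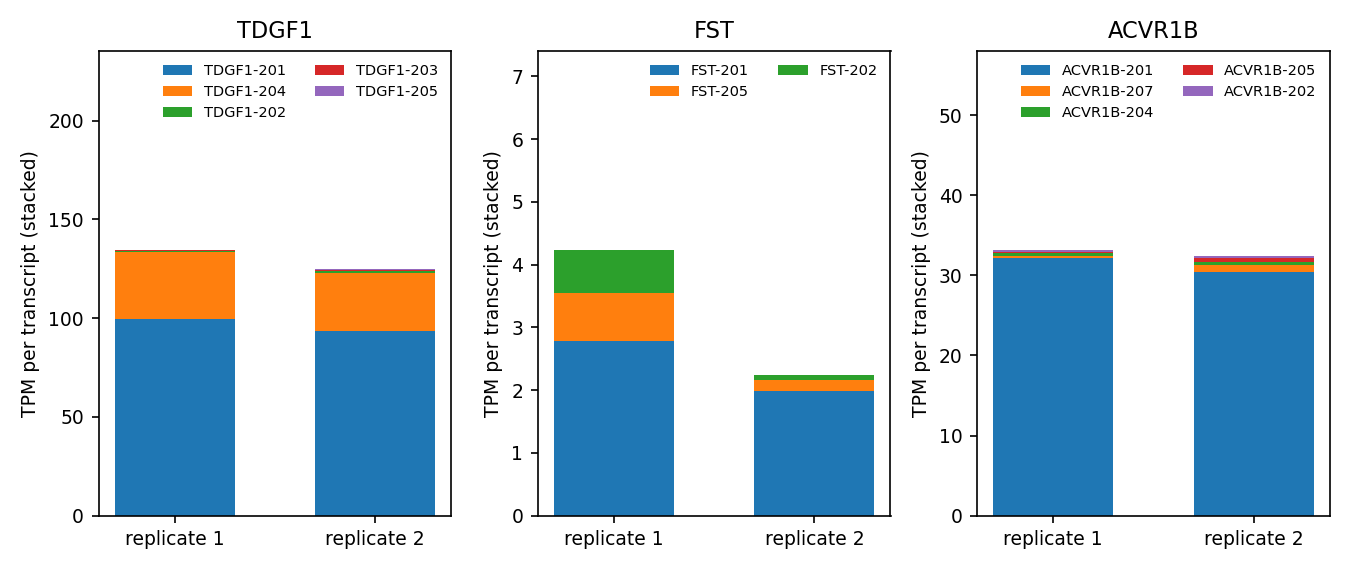
TPM of each matched transcript, stacked, in both libraries for TDGF1, FST and ACVR1B (linear axes from 0, a scale for each gene). TDGF1-201 holds about 3 times the TPM of TDGF1-204 in both libraries, and the FST column is lower in replicate 2.

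Between the replicates, all 6 of the genes whose mean CPM reached 1 had the lower CPM in replicate 2, against 52.2% of all genes at that level. Most of these differences did not pass the test given next. Their median difference in log2(CPM + 1), replicate 2 minus replicate 1, was -0.23, and that of all 13898 such genes was -0.0077. Both libraries carry the same label, so this is a difference between libraries and not between conditions.

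Set against counting noise, FST and ACVR2B differed. An exact binomial test in edgeR (two-sided, Benjamini-Hochberg adjusted over 15299 genes) called 2 of the 7 tested genes at an adjusted p under 0.05, and it called 13.1% of all genes tested. Both calls were lower in replicate 2, a direction called for 6.35% of all genes, and 0 were higher, a direction called for 6.78%. At an unadjusted p under 0.05 there were 4 of the 7 tested genes, all lower in replicate 2, and 3694 of all 15299 genes. LEFTY1, LEFTY2 and INHBA had too few reads to be tested. FST in replicate 2 was 0.578 times its CPM in replicate 1 (95% exact interval, 0.432 to 0.769), with an adjusted p of 0.0019 in edgeR. ACVR2B was 0.827 times (0.760 to 0.898), with an adjusted p of 0.00026 in edgeR. For NODAL the ratio was 0.637 (0.405 to 0.990), with an adjusted p of 0.20 in edgeR. TDGF1, with a ratio of 0.944 (0.896 to 0.995), had an adjusted p of 0.20 in edgeR as well. GDF3, at 0.858 (0.683 to 1.07), and ACVR1B, at 0.956 (0.905 to 1.01), had intervals that include equality, and so did INHBB at 1.09 (0.447 to 2.65). Each side of the test is a single library, so the test has no replicate check and measures only how these libraries differ.

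The other listed genes were read in the same test. Of the 40 genes, 27 were tested and 2 were called, 1 in each direction. Of all genes tested 13.1% were called, 6.35% lower and 6.78% higher in replicate 2. FOXH1, the DNA-binding partner of SMAD2, fell from 52.3 to 39.0 CPM, a ratio of 0.745 (95% exact interval, 0.683 to 0.813), with an adjusted p of 3.6e-09 in edgeR. SMAD4 rose from 40.0 to 45.0 CPM, with an adjusted p of 0.048 in edgeR that lay above 0.05 with DESeq2 size factors, with library totals and with no filter. The median difference over the 27 genes whose mean CPM reached 1 was -0.033. That lies nearer to the median of all such genes than to that of the 6 among the 10.

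Markers also moved between the libraries, on the seminoma and early germ cell list as well as on lists of other cells. Of the 8 seminoma and early germ cell markers 3 were called, where 13.1% of all genes tested were called. PRDM1 fell to 0.878 times (adjusted p of 0.0012 in edgeR). POU5F1 rose 1.02 times (adjusted p of 0.018 in edgeR) and PDPN 1.03 times (adjusted p of 0.024 in edgeR). Of the 4 embryonal carcinoma markers, DNMT3B fell to 0.791 times (adjusted p of 4.2e-14 in edgeR), and the summed level of the list was 143 CPM in replicate 1, against 115.2 CPM in the other library. SOX2, its defining gene, had 24 reads in each library. The fibroblast and testis somatic list summed to 24.8 and 30.2 CPM, and 1 of its 3 tested genes was called, where 6.78% of all genes were called in that direction. That gene was LUM, which rose 1.41 times (adjusted p of 0.0017 in edgeR). The other two did not pass, COL1A1 with a ratio of 1.21 and AMH with a ratio of 0.967. DCN and INSL3 had 1 read in each library, and STAR had 4 and 0. Whether these markers have a part in the differences of FST and ACVR2B was not tested.

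**Figure D5:**
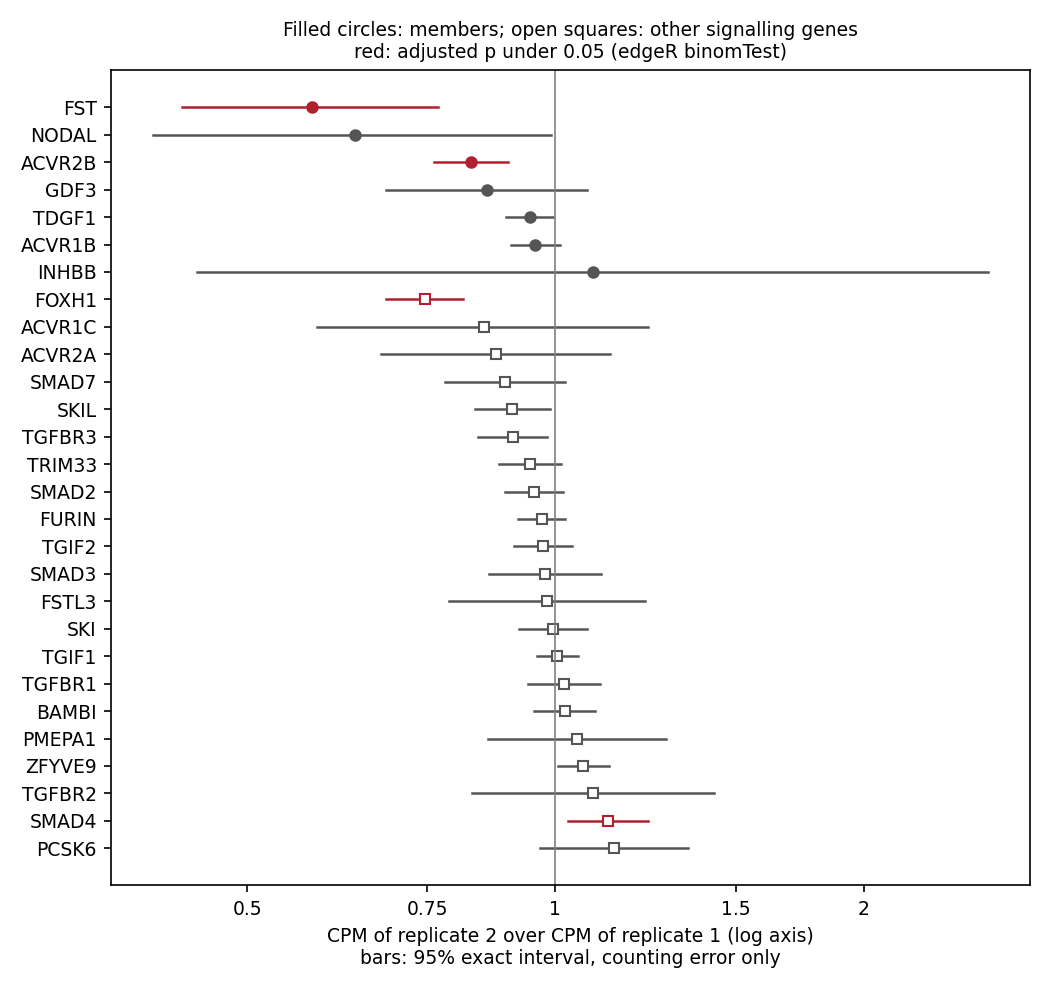
Ratio of CPM in replicate 2 to replicate 1 (log axis) with 95% exact intervals, for the 7 tested genes of the 10 (filled circles) and other signalling genes (open squares), red where the adjusted p was under 0.05. FST, ACVR2B and FOXH1 lie left of equality in red and SMAD4 lies right of it.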

How the data were processed

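Libraries were made from polyadenylated RNA with a strand-specific kit, per the labels' protocols. The submitters' processing notes name GRCh38, Trim Galore 0.6.10, STAR 2.7.11a, DESeq2 and Salmon 1.10.2, without roles. The transcript table holds TPM made by the authors with salmon, per the name of the table. The gene table is named CPM, but the deposited signal has whole steps in each library: 100% of values above 0 were within 0.1 of a whole multiple of 1 read, worth 1.02 in replicate 1 and 1.12 in replicate 2. Whole reads were recovered by division, and CPM is relative to all reads in genes. The headers name the value columns only, and 0 columns were unused. Transcripts were matched to GENCODE 29, which held 201667 of 251955 transcripts and 94.8% of TPM in each library. Unmatched transcripts are left out of gene sums.

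Libraries were compared with edgeR 4.0.16 (binomTest, TMM, filterByExpr). That test was tested on simulated data. Wilson and exact intervals (scipy 1.17.1) leave out all error but counting, as reads without molecular identifiers are not independent molecules. Alternatives covered scaling (DESeq2 1.42.0 size factors, library totals), filters, thresholds, pseudocount, the table used and each library alone. Proteins were not analysed here; coding sequences were aligned with Biopython 1.88. The members and lists were chosen with earlier results of these data known. Named were the 10 genes, their copies and antisense genes, the list of 40, markers and transcripts with at least 5% of a gene's TPM; overlapping gene models and CERS1 were named after their values were seen. Some genes of the lists and a sequence stretch are not reported here.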

Additional observations from a re-analysis of the deposited data

How the results depend on the processing

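No paired analysis was possible because there is no second group. The number of the 10 genes detected and the 2 calls among them did not move beyond 1.5 times under the alternatives tried. Of the 10 places in the order per length, 8 were kept with CPM divided by transcript length. Replicate 2 alone also kept 8 places, and replicate 1 alone kept 10. The summed level of the 10 genes was 300.4 CPM, against 300.1 with DESeq2 size factors and 300.8 with TMM. The median difference was -0.25 with a pseudocount of 0.1 CPM and -0.18 over all 10 genes with no filter. With 2 libraries, either library alone always lies within the SD of the mean. Leaving out a library therefore could not test the summed level or the share of TDGF1-201, which was 74.0% in replicate 1 and 74.8% in replicate 2. Detected genes of the 10 were 4 at 5 CPM, 5 by TPM and 8 at 0.1 CPM, and were 6 with either library alone. The summed level was 287.2 CPM without replicate 1 and 313.6 CPM without replicate 2. Called genes of the list of 40 were 1 in place of 2 with DESeq2 size factors, with library totals and with no filter, since SMAD4 had adjusted p of 0.065, 0.063 and 0.090 there (edgeR). The median log2 ratio of reads to prediction, 0.14 over the 6 detected genes, was 0.43 with the unweighted mean transcript length; the cause was not tested. The adjusted p of FST stayed between 0.0015 and 0.0032 and that of ACVR2B between 0.00014 and 0.00038 (edgeR). Depth limits the low genes: LEFTY1, LEFTY2 and INHBA, with 10 reads or fewer, allow no statement on a difference between the libraries.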
